A study of Mus musculus with 7 samples.

Results

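The 9 genes described here carry the insulin signal in liver and its best known transcriptional outputs. They are Insr, Irs1, Irs2, Akt2, Foxo1, Ppargc1a, Pck1, G6pc and Igfbp1, they were picked by gene symbol as parts of this pathway, and all 9 were found among the 24421 gene symbols of the count table. Transcript levels come from poly(A) RNA-seq of the livers of 7 mice of the C57BL/6 strain at an age of 36 weeks. The 4 livers labelled knockout carried floxed Prkci alleles and the Alb-Cre transgene, whose albumin promoter drives the recombinase in hepatocytes. Liver cells in which this promoter was never active should keep the gene. The 3 control livers carried the same floxed alleles without Cre. All 7 mice had received the liver carcinogen diethylnitrosamine (DEN) intraperitoneally when 2 weeks old (25 mg/kg). From an age of 4 weeks they ate a 60% fat diet, for 32 weeks. No untreated or lean liver is part of the comparison, and the labels state neither feeding state, time of collection nor whether tumour tissue was taken. The libraries are 1 per mouse as titled, so p-values measure the spread between these samples.

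Insulin binds the receptor encoded by Insr, which phosphorylates the adaptor proteins IRS1 and IRS2. These recruit PI3-kinase, and the kinase AKT2 then phosphorylates the transcription factor FOXO1, which leaves the nucleus. Nuclear FOXO1, with the coactivator PGC-1alpha encoded by Ppargc1a, turns on Pck1 and G6pc, which encode an early rate-controlling enzyme and the last enzyme of gluconeogenesis, as well as Igfbp1, Irs2 and Insr. Glucagon raises Pck1 and Ppargc1a through cyclic AMP and CREB. Prkci encodes the atypical protein kinase C lambda/iota, which is itself activated downstream of PI3-kinase.

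Some of the sequences through which these signals are known to act lie close to the transcription starts, and those further upstream were not searched. Shown are 5 of the promoters that carry such letters. Each is the 250 bases before the RefSeq start (GRCm38.p6), printed 5′ to 3′ on the gene's strand. Capitals mark the core of the insulin response element bound by FOXO factors (CAAAACA, or TGTTTTG on the other strand), the core of the cyclic AMP response element (TGACGT, or ACGTCA on the other strand) and the E-box CACGTG. They come from chr11:7197537-7197786 (plus strand) for Igfbp1, chr11:101367466-101367715 (plus) for G6pc, chr2:173152823-173153072 (plus) for Pck1, chr8:11008930-11009179 (minus) for Irs2 and chr1:82291440-82291689 (minus) for Irs1.
Igfbp1: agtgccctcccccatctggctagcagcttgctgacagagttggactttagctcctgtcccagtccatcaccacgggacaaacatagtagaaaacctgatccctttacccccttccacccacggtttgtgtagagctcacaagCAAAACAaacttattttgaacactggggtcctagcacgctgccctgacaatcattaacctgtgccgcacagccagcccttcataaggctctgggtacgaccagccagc
G6pc: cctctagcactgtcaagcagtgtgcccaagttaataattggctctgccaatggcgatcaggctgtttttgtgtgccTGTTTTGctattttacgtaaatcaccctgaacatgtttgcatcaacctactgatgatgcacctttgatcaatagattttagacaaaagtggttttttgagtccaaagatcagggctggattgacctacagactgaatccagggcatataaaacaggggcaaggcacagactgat
Pck1: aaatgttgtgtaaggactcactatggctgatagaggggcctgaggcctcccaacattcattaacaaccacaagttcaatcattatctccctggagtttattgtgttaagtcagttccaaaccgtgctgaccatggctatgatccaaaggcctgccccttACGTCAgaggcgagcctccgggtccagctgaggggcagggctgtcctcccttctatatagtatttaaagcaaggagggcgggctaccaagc
Irs2: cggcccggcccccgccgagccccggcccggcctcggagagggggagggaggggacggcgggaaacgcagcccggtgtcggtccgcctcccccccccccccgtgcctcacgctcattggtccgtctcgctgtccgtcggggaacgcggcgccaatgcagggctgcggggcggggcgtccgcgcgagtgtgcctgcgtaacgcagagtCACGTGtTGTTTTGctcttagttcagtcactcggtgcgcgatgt
Irs1: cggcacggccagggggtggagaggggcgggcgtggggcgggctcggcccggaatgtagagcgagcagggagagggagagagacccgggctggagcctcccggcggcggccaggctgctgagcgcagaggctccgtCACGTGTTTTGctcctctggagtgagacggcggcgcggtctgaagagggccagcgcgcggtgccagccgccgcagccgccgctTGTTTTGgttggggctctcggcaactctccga

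Of the 8 genes with a RefSeq window, 4 held the insulin response element core. It began 108 bases before the start in Igfbp1, 174 in G6pc, 37 in Irs2, and 111 and 32 in Irs1. Over 32851 promoter windows of the same length, 5.56% held it. The cyclic AMP response element core stood in 2 of the 8, 91 bases before the start in Pck1 and 50 in Ppargc1a, and in 6.47% of all windows. The E-box was present in Irs1 and Irs2 alone among the 8 and in 6.02% of all windows. In Irs1 its last bases are the first bases of the insulin response element core, and in Irs2 a base separates the 2 motifs. The windows of Akt2 (4 starts) and Foxo1 held none of the 3 motifs. A match describes these letters and is not evidence of a bound factor.

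Between 23807580 and 49203615 reads per library were assigned to genes. Prkci itself, counted over the whole gene, was at 30.0, 30.7, 28.2 and 28.7 CPM (read counts scaled to a common library size with TMM factors) in the livers labelled knockout and at 23.3, 20.4 and 27.7 CPM in the control livers. It was thus not lower under the knockout label (log2 fold change 0.30, SE 0.12, edgeR adjusted p = 0.214). Such a count includes reads outside any deleted exon and does not check the genotype, so each direction below rests on the labels. Control 3 stood apart from the other controls: the summed level of 26 acute phase genes was 45307 to 55178 CPM in the knockout-labelled livers, against 201079 and 197806 CPM in controls 1 and 2 and 45717 CPM in control 3. The 5 neutrophil markers in the table summed to 13.1 to 16.6 CPM in the knockout-labelled livers, against 236, 59.4 and 17.3 CPM in controls 1 to 3. The 8 Kupffer cell and macrophage markers summed to 298 to 917 CPM in the knockout-labelled livers and to 563 to 1054 CPM in the control livers. The 9 hepatocyte markers in the table were at 0 in no library. They summed to 66530 to 81583 CPM in the knockout-labelled livers and to 84947 to 120140 CPM in the control livers. Most of each sum was Alb, at 37357 to 53994 CPM in the knockout-labelled livers and 51563 to 82650 CPM in the control livers. Of the 9 log2 fold changes 3 were above and 6 below 0 (median -0.18), and none had an edgeR adjusted p under 0.05. Fewer cells of a type and less RNA per cell cannot be told apart in RNA from liver tissue. The part of these marker differences in the values below was not tested. The difference of each of the 9 genes and the calls or median of each list are therefore also given without control 3. They are also given against control 3 alone, which is then assumed to vary like the other libraries.

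None of the 9 genes passed edgeR's quasi-likelihood test with Benjamini-Hochberg adjustment over all 13638 genes tested (threshold 0.05), where 2.21% of all genes passed. All 9 log2 fold changes were below 0, as were those of 6974 of all 13638 genes tested. The median of the 9 was -0.30, against -0.01 over all genes tested. At an unadjusted edgeR p under 0.05 there were 4 of the 9, Irs2, Akt2, Insr and Ppargc1a, each lower in the knockout-labelled livers. At that level 18% of all genes stood, 9.34% higher and 8.67% lower. The groups did not overlap for 2 of the 9, Irs2 and Akt2, and for 16.3% of all genes. DESeq2 called 1 member, Irs2, with 7.68% of all genes called, and limma-voom called 0, with 1% called. Without control 3, edgeR called 3 members, Irs2, Insr and Akt2, all lower, against 9.32% of all genes. Against control 3 alone it called 0 of the 9 and 0.0612% of all genes. The TMM factors were 1.066 to 1.087 in the knockout-labelled livers and 0.83, 0.8553 and 1.058 in controls 1 to 3. Scaling by total reads alone, without TMM factors, moved the median of all genes to 0.22 and that of the 9 genes to -0.06. These shifts were of like size, and Irs1, Foxo1, G6pc and Igfbp1 then had values at or just above 0. That scaling called 0 of the 9 and 3.65% of all genes. With the replicate number as a block 0 of the 9 and 0.543% of all genes were called, and at an adjusted p under 0.1 edgeR called 1 of the 9, Irs2, and 5.62% of all genes.

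**Figure D1:**
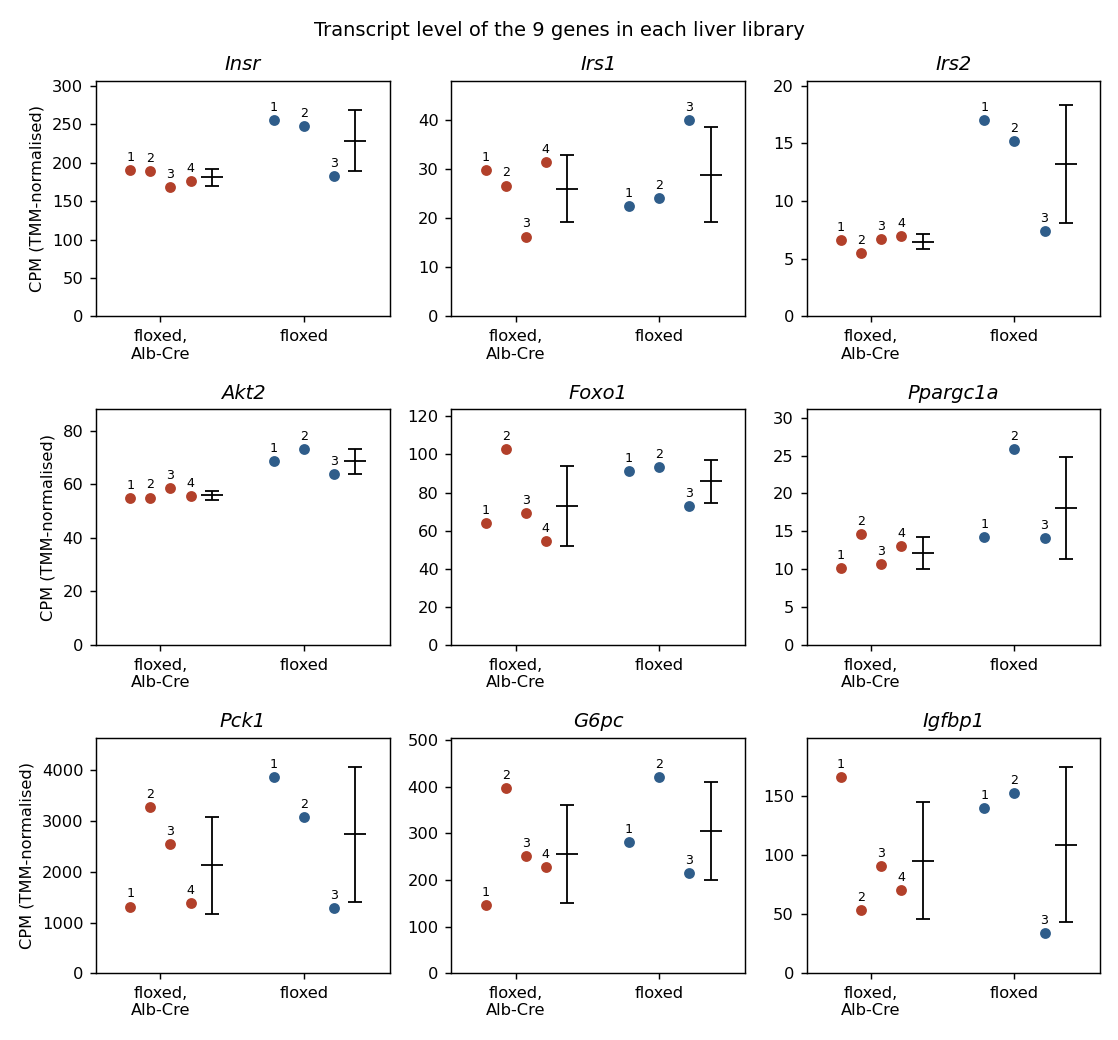
TMM-normalised CPM of each gene (vertical axes, from 0) in 4 floxed Alb-Cre livers, left, and 3 floxed control livers, right; numbers mark the libraries and the bars beside them the mean ± SD. Irs2 and Akt2 are the genes whose groups do not overlap, and control 3 lies beside the Alb-Cre livers for Insr and Irs2.

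Irs2 differed most among the 9. This gene (chromosome 8, 10984681 to 11008458, minus strand, 2 exons; GENCODE M21 on GRCm38, as for all gene positions here) encodes the adaptor whose transcript in liver is induced by FOXO1 and shut off by insulin. It had 6.66, 5.51, 6.67 and 6.99 CPM in knockout-labelled livers 1 to 4, against 17.0, 15.2 and 7.41 CPM in controls 1 to 3. Controls 1 and 2 were far above every knockout-labelled liver, while control 3 lay just above them. The means were 6.46 ± 0.65 CPM (SD, n = 4) in knockout-labelled and 13.2 ± 5.1 CPM (SD, n = 3) in control livers. This was a log2 fold change of -1.03 (SE 0.25, 95% interval -1.60 to -0.46), a fold of 0.49, and edgeR's adjusted p was 0.068. DESeq2 gave an adjusted p of 0.00576 and limma-voom 0.165. Without control 3 Irs2 fell by 1.32 on the log2 scale (edgeR adjusted p = 0.000946). Against control 3 alone the value was -0.20 (edgeR adjusted p = 0.802). The separation of control 3 rests on few reads: the exact Poisson 95% interval, which covers counting error only, was 6.19 to 7.85 CPM for knockout-labelled liver 4 and 6.43 to 8.48 CPM for control 3.

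Insr, the receptor gene (chromosome 8, 3122061 to 3279617, minus strand, 21 exons), showed a like arrangement at smaller size, with overlap of the groups. It had 190, 189, 168 and 176 CPM in the knockout-labelled livers, against 255, 248 and 183 CPM in the control livers. Control 3 lay inside the range of the knockout-labelled livers and the other controls above it. Means were 181 ± 10.9 CPM (SD, n = 4) in knockout-labelled and 229 ± 39.8 CPM (SD, n = 3) in control livers, a log2 fold change of -0.34 (SE 0.13, 95% interval -0.64 to -0.04) with an edgeR adjusted p of 0.22. Without control 3 Insr fell by 0.48 on the log2 scale (edgeR adjusted p = 0.0182), and against control 3 alone the value was -0.02 (edgeR adjusted p = 0.969).

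Irs1, the other main receptor substrate (chromosome 1, 82233101 to 82291416, minus strand, 2 exons), did not share the pattern of Irs2. Its levels were 29.8, 26.7, 16.3 and 31.4 CPM in the knockout-labelled livers and 22.6, 24.1 and 40.0 CPM in the control livers. The groups overlapped, with control 3 the highest of the 7 libraries and knockout-labelled liver 3 the lowest. Means were 26.0 ± 6.81 CPM (SD, n = 4) in knockout-labelled and 28.9 ± 9.64 CPM (SD, n = 3) in control livers. The log2 fold change of -0.15 (SE 0.27, 95% interval -0.78 to 0.48, edgeR adjusted p = 0.821) turned to 0.15 without control 3 and was -0.62 against control 3 alone. Per kilobase of transcript, the ratio of Irs1 to Irs2 was 3.10, 3.35, 1.68 and 3.11 in the knockout-labelled livers, against 0.918, 1.10 and 3.73 in the control livers. Irs1 was thus above Irs2 in every liver but control 1. The mean difference of the log2 ratio was 0.80 (two-sided exact permutation p = 0.257, and 1 after adjustment over 8 ratios; the smallest p that 35 splits allow is 0.0286).

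Akt2, the main AKT kinase of insulin action in liver (chromosome 7, 27591552 to 27640826, plus strand, 14 exons), was the steadiest of the 9. It had 54.7, 55.0, 58.4 and 55.6 CPM in the knockout-labelled livers, against 68.7, 73.2 and 63.9 CPM in the control livers. All 3 controls lay above all 4 knockout-labelled livers, control 3 the least. Within the knockout-labelled livers the highest value was 1.07 times the lowest, a spread smaller than that of all but 1.72% of genes tested. Means were 55.9 ± 1.69 CPM (SD, n = 4) in knockout-labelled and 68.6 ± 4.65 CPM (SD, n = 3) in control livers, a log2 fold change of -0.30 (SE 0.09, 95% interval -0.49 to -0.10, edgeR adjusted p = 0.11). Akt2 fell by 0.35 without control 3 (edgeR adjusted p = 0.0437), and the value was -0.20 against control 3 alone (edgeR adjusted p = 0.606). Without TMM factors it was -0.06 (edgeR adjusted p = 0.796) and the groups overlapped. Per kilobase the ratio of Akt2 to its paralogue Akt1 was 0.603, 0.547, 0.584 and 0.585 in the knockout-labelled livers and 0.469, 0.509 and 0.663 in the control livers (two-sided exact permutation p = 0.457).

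Foxo1 (chromosome 3, 52268336 to 52353221, plus strand, 3 exons), the transcription factor that AKT holds out of the nucleus, had 64.0, 103, 69.3 and 54.8 CPM in the knockout-labelled livers and 91.5, 93.5 and 72.9 CPM in the control livers. Knockout-labelled liver 2 was the highest of all 7, and the groups overlapped. The means of 72.7 ± 20.9 CPM (SD, n = 4) in knockout-labelled and 86.0 ± 11.4 CPM (SD, n = 3) in control livers gave a log2 fold change of -0.24 (SE 0.20, 95% interval -0.70 to 0.22, edgeR adjusted p = 0.591). It was -0.35 without control 3 and -0.01 against control 3 alone, and neither passed.

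Ppargc1a (chromosome 5, 51454250 to 51567726, minus strand, 13 exons), whose product PGC-1alpha coactivates FOXO1 and is induced by fasting, had 10.2, 14.6, 10.7 and 13.1 CPM in the knockout-labelled livers and 14.3, 25.9 and 14.1 CPM in the control livers. Control 2 stood far above the other 6 libraries, and knockout-labelled liver 2 reached the level of the other controls. Means were 12.1 ± 2.07 CPM (SD, n = 4) in knockout-labelled and 18.1 ± 6.75 CPM (SD, n = 3) in control livers. The log2 fold change of -0.58 (SE 0.23, 95% interval -1.10 to -0.06) had an edgeR adjusted p of 0.229. It ranged from -0.73 without control 3 to -0.23 without control 2 when livers were left out in turn, and none of those fits passed. Against control 3 alone it was -0.22 (edgeR adjusted p = 0.763).

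Pck1 (chromosome 2, 173153048 to 173159273, plus strand, 10 exons), encoding cytosolic phosphoenolpyruvate carboxykinase, was the most abundant of the 9. It had 1316, 3269, 2540 and 1376 CPM in the knockout-labelled livers and 3859, 3068 and 1278 CPM in the control livers. Both groups held high and low livers: 2 of the 4 knockout-labelled livers and control 3 were close to each other at the low end. Means were 2125 ± 948 CPM (SD, n = 4) in knockout-labelled and 2735 ± 1322 CPM (SD, n = 3) in control livers, a log2 fold change of -0.36 (SE 0.44, 95% interval -1.37 to 0.64, edgeR adjusted p = 0.724). The interval is wide enough to hold a fold of 0.387 as well as 1.56. Against control 3 alone the value was 0.73 (edgeR adjusted p = 0.712), and without control 3 it was -0.71 (edgeR adjusted p = 0.366).

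G6pc (chromosome 11, 101367561 to 101377903, plus strand, 5 exons), encoding the catalytic subunit of glucose-6-phosphatase, which releases free glucose, had 147, 397, 252 and 227 CPM in the knockout-labelled livers and 282, 420 and 214 CPM in the control livers. The groups overlapped, with liver 2 the highest in each. Means were 256 ± 104 CPM (SD, n = 4) in knockout-labelled and 305 ± 105 CPM (SD, n = 3) in control livers. They gave a log2 fold change of -0.26 (SE 0.35, 95% interval -1.07 to 0.56, edgeR adjusted p = 0.761), and it was -0.46 without control 3 and 0.26 against control 3 alone. The ratio of Pck1 to G6pc per kilobase was 8.11, 7.47, 9.15 and 5.50 in the knockout-labelled livers and 12.4, 6.62 and 5.41 in the control livers (two-sided exact permutation p = 0.971).

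Igfbp1 (chromosome 11, 7197782 to 7202546, plus strand, 4 exons), a secreted protein that binds insulin-like growth factors and whose transcript insulin shuts off within a short time, varied most between livers. It had 166, 53.9, 91.2 and 70.9 CPM in the knockout-labelled livers and 140, 153 and 33.8 CPM in the control livers. Its lowest value was in control 3 and its highest in knockout-labelled liver 1, which stood 4.92 times above it. Its spread exceeded that of 91.5% of genes within the knockout-labelled livers and of 93.9% within the control livers. Means of 95.6 ± 49.6 CPM (SD, n = 4) in knockout-labelled and 109 ± 65.3 CPM (SD, n = 3) in control livers gave a log2 fold change of -0.19 (SE 0.63, 95% interval -1.74 to 1.37, edgeR adjusted p = 0.915). The value was -0.62 without control 3 and 1.49 (SE 0.78, edgeR adjusted p = 0.578) against control 3 alone.

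**Figure D2:**
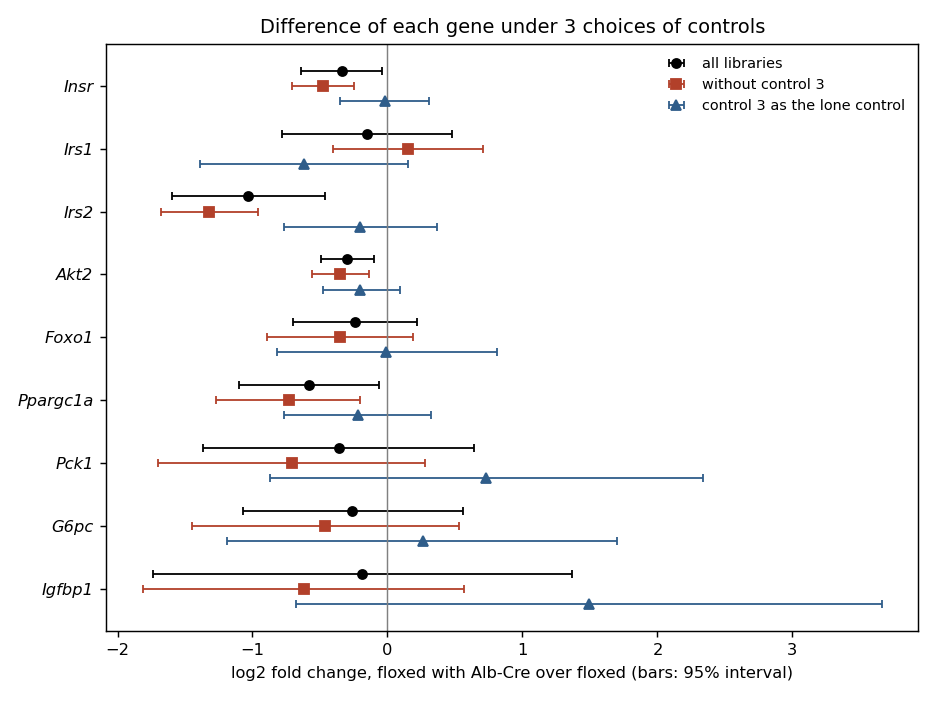
Log2 fold change of each gene, floxed Alb-Cre over floxed livers (horizontal axis), with its 95% interval, from edgeR with all 7 libraries (circles), without control 3 (squares) and against control 3 alone (triangles). The intervals of Irs2, Insr, Akt2 and Ppargc1a lie below 0 both with all 7 libraries and without control 3. Irs1, Pck1, G6pc and Igfbp1 change sign between the squares and the triangles.

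Per kilobase of the longest protein-coding transcript, a scale on which genes can be compared, Pck1, G6pc and Igfbp1 had the highest mean levels. The mean level of Pck1 was 799 CPM per kilobase in knockout-labelled and 1028 in control livers. G6pc followed at 106 in knockout-labelled and 127 in control livers, and Igfbp1 at 62.7 in knockout-labelled and 71.4 in control livers. Insr, the highest of the signalling genes, was at 19.3 CPM per kilobase in knockout-labelled and 24.5 in control livers. Below it stood Akt2, at 12.3 in knockout-labelled and 15.1 in control livers, and Foxo1, at 8.39 in knockout-labelled and 9.92 in control livers. The last 3 were Irs1, at 2.85 in knockout-labelled and 3.16 in control livers, Ppargc1a, at 1.88 in knockout-labelled and 2.80 in control livers, and Irs2, at 1.02 in knockout-labelled and 2.09 in control livers. The order of the 9 genes was the same in both groups. Pck1 was above G6pc in every liver, by at least 5.41 times. Neighbours in this order whose ranges overlapped in both groups were G6pc with Igfbp1 and Irs1 with Ppargc1a, while Igfbp1 with Insr and Ppargc1a with Irs2 overlapped in the control livers only. The other neighbours did not overlap. Together the 9 genes took 0.216, 0.439, 0.342 and 0.216% of the gene-assigned reads in the knockout-labelled livers and 0.394, 0.352 and 0.202% in the control livers, most of them from Pck1.

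Across livers the genes did not move as a block. Knockout-labelled liver 2 was the highest of its group for Foxo1, Ppargc1a, Pck1 and G6pc and the lowest for Irs2 and Igfbp1. Knockout-labelled liver 1 was the lowest of its group for Akt2, Ppargc1a, Pck1 and G6pc and the highest for Insr and Igfbp1. Igfbp1 thus ran against Pck1 and G6pc in those 2 livers, while control 3 was the lowest control for each of these genes. The promoters of Igfbp1 and G6pc printed above both hold the insulin response element core, and a link between motif and level was not tested. Among the controls, liver 1 was the highest of all 7 for Insr, Irs2 and Pck1, and liver 2 for Akt2, Ppargc1a and G6pc. Control 3 was within the range of the knockout-labelled livers for 4 of the 9 genes (48.2% of all genes tested), above it for Irs1, Irs2 and Akt2 and below it for Pck1 and Igfbp1. Control 1 was within that range for 5 of the 9 (45.1% of all genes) and control 2 for 4 (41.2%), and neither was below it for any.

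**Figure D3:**
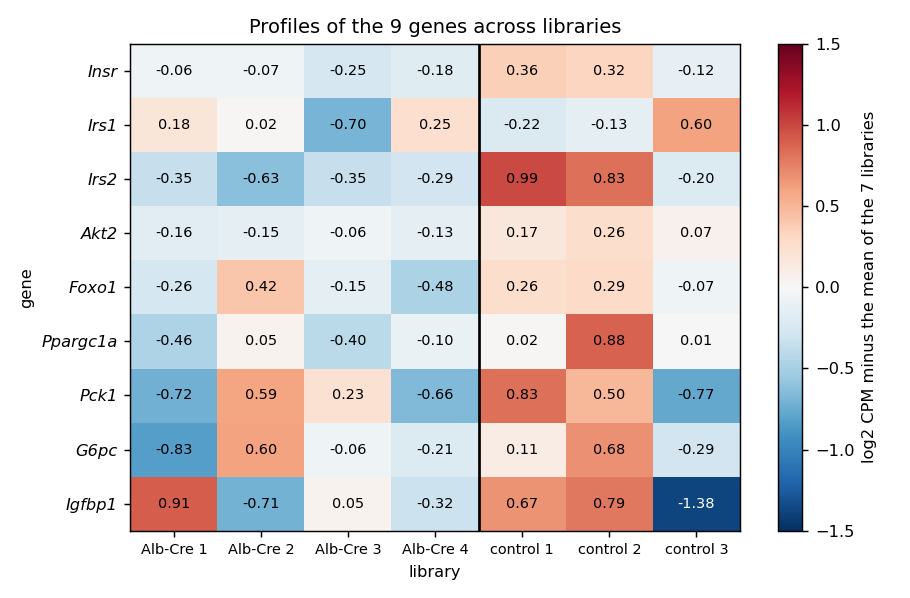
Log2 CPM of each gene (rows) in each library (columns, Alb-Cre livers left of the line and controls right of it), as the difference from the gene's mean over the 7 libraries, with the value printed in each cell. Irs2 is at 0.99 and 0.83 in controls 1 and 2 and below 0 in the other 5 libraries, and Igfbp1 is at 0.91 in Alb-Cre liver 1 and -1.38 in control 3.

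The genes with the most similar profiles were sought among 10988 genes by the mean absolute difference of centred log2 CPM over the 7 libraries. The nearest to Irs2 was Lrig1, which encodes a membrane protein that restrains receptor tyrosine kinases (0.0883, where Irs2 itself varied by 0.52 about its mean). Lrig1 had 32.5, 29.0, 31.7 and 36.6 CPM in the knockout-labelled livers and 73.6, 71.8 and 39.9 CPM in the control livers. That controls 1 and 2 were high for both genes follows from the search, which selects for like profiles. Nearest to Insr was Reps2 (0.0382), to Irs1 the kinase gene Dyrk2 (0.0744), to Akt2 the RNA helicase gene Ddx47 (0.0176) and to Foxo1 the gene Csrp3 (0.062). Ppargc1a lay nearest to Srebf1 (0.0965), which encodes the lipogenic transcription factor SREBP-1 and had 87.2, 106, 78.6 and 88.8 CPM in the knockout-labelled livers and 112, 209 and 116 CPM in the control livers. Control 2 was the high library for both, which the search likewise selects for. G6pc lay nearest to the estrogen receptor gene Esr1 (0.0975), Pck1 to E2f2 (0.18) and Igfbp1 to the mevalonate kinase gene Mvk (0.244). The genes' own mean distances from their average differed too, at 0.613 for Pck1, 0.689 for Igfbp1 and 0.144 for Akt2, so the values are not comparable between genes.

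Around these genes, 46 genes of insulin signalling were tested, and 2 of them passed, both lower, against 0.953% of all genes. Their median log2 fold change was -0.11. Enpp1 encodes a membrane phosphodiesterase that inhibits the insulin receptor. It had 40.1, 43.0, 34.2 and 40.7 CPM in the knockout-labelled livers, against 69.6, 78.9 and 56.7 CPM in the control livers, with no overlap. It fell by 0.79 (SE 0.13, edgeR adjusted p = 0.0204). Ceacam1 encodes a receptor substrate that promotes insulin clearance in liver. It had 110, 123, 106 and 109 CPM in the knockout-labelled livers, against 149, 179 and 154 CPM in the control livers, and fell by 0.52 (SE 0.11, edgeR adjusted p = 0.0378). Control 3 lay with the other controls for Ceacam1 and between them and the knockout-labelled livers for Enpp1. Both calls were lost without control 1 or 2 or without knockout-labelled liver 1, 3 or 4 (highest edgeR adjusted p 0.0904 for Enpp1 and 0.167 for Ceacam1). Both also missed the threshold against control 3 alone, at -0.52 and -0.46. Without TMM factors Ceacam1 was lost (-0.28, edgeR adjusted p = 0.239) and Enpp1 passed. DESeq2 called 1 gene of the list higher, Trib3, and 3 lower, Enpp1, Ceacam1 and Irs2, and limma-voom called Enpp1 alone. Of all genes DESeq2 called 7.68% and limma-voom 1%. Without control 3 the list had 1 gene that rose, Trib3, which encodes an AKT inhibitor. In that fit 8 genes of the list fell, the 3 members together with Enpp1, Ceacam1, Akt1, Ptpn1 and Socs3. Over all 14056 genes tested there, 659 rose and 651 fell.

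Of 29 gluconeogenesis enzymes and carriers tested, 1 rose and 0 fell, against 1.26% of all genes that rose, and the median log2 fold change was 0.09. The gene that rose was Slc25a10, the mitochondrial dicarboxylate carrier, which exchanges malate and succinate for phosphate. It had 277, 331, 326 and 347 CPM in the knockout-labelled livers, against 136, 139 and 210 CPM in the control livers, with no overlap and control 3 the highest control. Its log2 fold change was 0.99 (SE 0.17, edgeR adjusted p = 0.0257). That call was lost without control 1 or 2 or without knockout-labelled liver 1, 3 or 4 (highest edgeR adjusted p 0.118), and the value against control 3 alone was 0.61. At an unadjusted edgeR p under 0.05 there were 8 of the 29 genes, against 18% of all genes. Of the 29, 6 were higher in the knockout-labelled livers at that level, against 9.34% of all genes, and 2 lower, against 8.67%. DESeq2 called 5 that rose, Slc25a10, Gpt, Gpt2, Mdh1 and Pgk1, and 1 that fell, Ldha, and limma-voom called Slc25a10 alone. The shares of all genes called were 7.68% with DESeq2, 1% with limma-voom, 9.32% without control 3 and 3.65% without TMM factors. Without control 3 edgeR called 3 that rose, Slc25a10, Gpt2 and Gpd1, and 1 that fell, Slc25a12, and without TMM factors 4 that rose, Slc25a10, Gpt, Gpt2 and Pgk1, while it called 0 against control 3 alone.

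In the lists of transcriptional targets, edgeR with all libraries called no gene. Of 19 genes listed as insulin-repressed targets, which include 6 of the 9 genes, 14 were lower and the median was -0.19. At an unadjusted edgeR p under 0.05 there were 7 of the 19, against 18% of all genes. DESeq2 called 3 of the 19 lower and 1 higher, limma-voom 0. For this list and the next, the shares of all genes called were 7.68% with DESeq2 and 1% with limma-voom. They were 9.32% without control 3 and 3.65% without TMM factors. Without control 3 edgeR called 1 that rose, Pdk4, and 4 that fell, Irs2, Insr, Enho and Bcl6, and without TMM factors 2 that fell, Enho and Bcl6, while it called 0 against control 3 alone. The most abundant per kilobase was Pck1 and next Apoc3, a triglyceride-raising apolipoprotein, at 987 ± 137 CPM (SD, n = 4) in knockout-labelled and 1042 ± 187 CPM (SD, n = 3) in control livers. Of 14 insulin-induced targets, 9 were higher and the median was 0.20, with 2 at an unadjusted p under 0.05, both lower; DESeq2 called those 2, Srebf1 and Mlxipl, and limma-voom 0. Without control 3 edgeR called 1 that rose, Me1, and it called 0 against control 3 alone or without TMM factors. Scd1, the stearoyl-CoA desaturase gene and the most abundant of them, had 6090 ± 1503 CPM (SD, n = 4) in knockout-labelled and 3905 ± 3360 CPM (SD, n = 3) in control livers. The lipogenic gene Thrsp had 138 ± 119 CPM (SD, n = 4) in knockout-labelled and 55.9 ± 52.3 CPM (SD, n = 3) in control livers. Neither difference exceeded the spread between livers (edgeR adjusted p = 0.601 and 0.521).

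No gene passed edgeR's test among 7 FOXO factors and coregulators, 37 regulators of gluconeogenesis, 21 genes of glycogen metabolism and glucose entry, or 12 genes of the IGF axis. At an unadjusted edgeR p under 0.05 these lists had 1, 5, 4 and 3 genes, against 18% of all genes. Their median log2 fold changes were -0.22, 0.01, 0.23 and -0.15. DESeq2 called 0 FOXO genes, 1 higher (Nr0b2) and 1 lower (Stat3) regulator, 0 glycogen genes and 1 higher IGF axis gene (Igfbp7). With limma-voom 0 were called in all 4 lists. Of all genes 7.68% were called with DESeq2, 1% with limma-voom, 9.32% without control 3 and 3.65% without TMM factors. Without control 3 edgeR called 0 FOXO genes, 1 lower regulator (Stat3), 1 higher glycogen list gene (the glucose transporter gene Slc2a2) and 1 higher IGF axis gene (Igfbp7). It called 0 in all 4 lists against control 3 alone, and without TMM factors only the regulator Nr0b2, higher. The most abundant members per kilobase, besides Foxo1, showed small differences. On the log2 scale Foxo4 differed by -0.22 (SE 0.11), the hepatocyte nuclear receptor gene Hnf4a -0.18 (SE 0.14) and the fasting-responsive transcription factor gene Creb3l3 0.07 (SE 0.12). Ugp2, which makes the UDP-glucose for glycogen, was at 0.25 (SE 0.14), and Pygl, the liver glycogen phosphorylase gene, at -0.10 (SE 0.16). Among the binding proteins of insulin-like growth factors, Igfbp4 was at -0.12 (SE 0.18) and Igfbp2 at 0.12 (SE 0.37). The edgeR adjusted p of these 7 genes was at least 0.324.

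**Figure D4:**
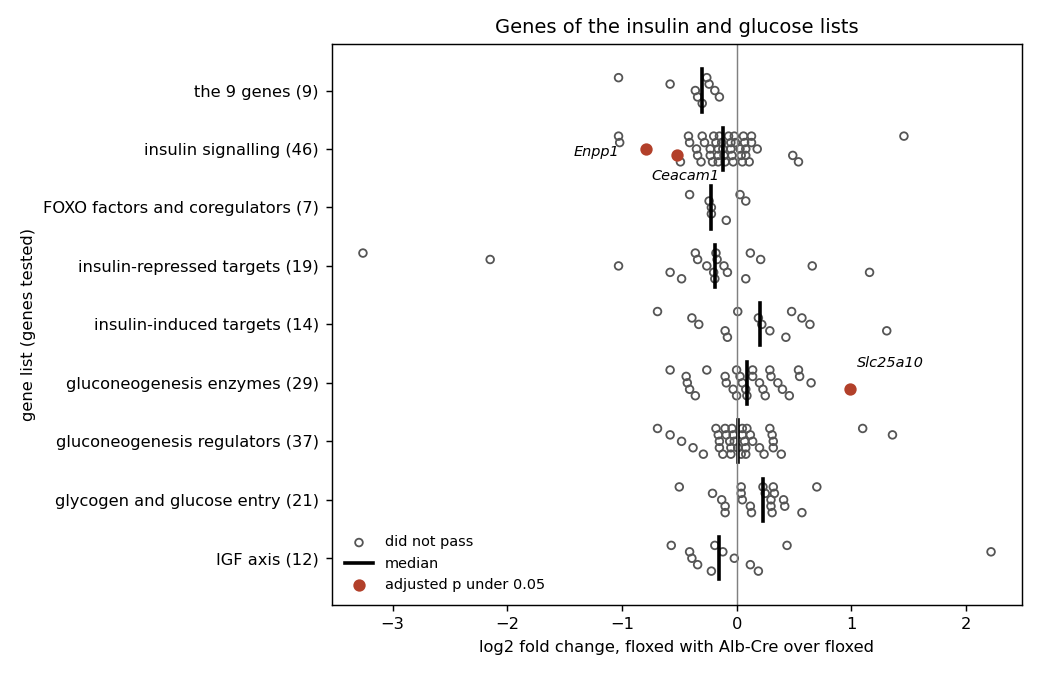
Log2 fold change, floxed Alb-Cre over floxed livers (horizontal axis), of every tested gene in 9 overlapping lists, with the number tested in brackets; a thick line marks the median and filled points the genes past an edgeR adjusted p of 0.05. Enpp1, Ceacam1 and Slc25a10 are the filled points, and none of the 9 genes is among them.

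Feeding and time of day also move these genes in liver, and the livers differed in markers of both. The 17 fasting-induced genes summed to 7226 to 10939 CPM in the knockout-labelled livers, against 7575, 5780 and 13238 CPM in controls 1 to 3, so control 3 was the highest liver and control 2 the lowest. edgeR called 0 of them with all libraries (median 0.07), and DESeq2 and limma-voom also called 0. At an unadjusted edgeR p under 0.05 there were 2 of the 17, against 18% of all genes. Without control 3 edgeR called 10 that rose and 2 that fell (median 0.61). In that fit 659 of all 14056 genes tested rose and 651 fell. Against control 3 alone the median of the list was -0.41. The metallothionein gene Mt2, an abundant member of the list, differed by -2.84 (SE 1.16) on the log2 scale without passing (edgeR adjusted p = 0.285). The clock output gene Dbp was at 43.7, 61.7, 51.8 and 37.3 CPM in the knockout-labelled livers and at 30.7, 25.5 and 63.8 CPM in the control livers. The clock gene Arntl was at 15.1, 9.21, 9.72 and 19.2 CPM in the knockout-labelled livers and at 12.9, 12.4 and 10.1 CPM in the control livers. The liver with the most Dbp in each group, knockout-labelled liver 2 and control 3, had the least Arntl. None of the 18 clock genes passed edgeR's test (median 0.11), while DESeq2 called 1 and limma-voom 0. There were 4 of the 18 at an unadjusted edgeR p under 0.05, against 18% of all genes. Without control 3 Dbp rose and Nfil3 fell, and against control 3 alone the median was -0.07. The most abundant, Bhlhe40 and Tef, were at -0.22 (SE 0.16) and -0.21 (SE 0.11). In the acute phase list 2 of 26 genes fell, against 0.953% of all genes. They were Itih4, by 1.73 (SE 0.36, edgeR adjusted p = 0.0436), and Saa3, by 0.61 (SE 0.13, edgeR adjusted p = 0.0472). Both calls held in 1 of the 7 fits with a library left out, the fit without control 3. In that fit 23 of the 26 fell, against 651 of all 14056 genes tested. DESeq2 called 16 of the list, all lower, where it called 507 of 14562 genes lower, and limma-voom called 0. Without TMM factors Saa3 was lost (-0.37, edgeR adjusted p = 0.169). The list's median was -1.44 with all libraries and 0.20 against control 3 alone. The part of feeding, time of day and the acute phase in the values of the 9 genes was not tested.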

How the data were processed

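Frozen liver pieces gave poly(A) RNA for directional libraries, per the labels' protocols, with single-end reads of 75 nt. The authors deposited raw, not normalised, read counts for each gene symbol, in 1 column for each of 7 libraries. No per-sample column was omitted (0). Per the submitters' processing notes, STAR, DESeq2 and mm10 were used, without roles or versions. What counted the reads, and on which annotation, is not given in the sources used here. The 2 entries that name no gene, with 8.62% to 16.3% (no feature) and 0.433% to 0.575% (ambiguous) of a library's reads, stayed out of library sizes and tests. A count of 0 allows up to 3 reads, or 0.061 to 0.126 CPM without TMM factors, and intervals cover counting error only.

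Groups were taken from the labels. edgeR 4.0.16 (R 4.3.3) was run on all genes with TMM factors, filterByExpr (minimum count 10), robust glmQLFit and glmQLFTest (quasi-likelihood, two-sided). Benjamini-Hochberg adjustment ran over 13638 genes, with 0.05 as threshold. Unless stated otherwise CPM carry TMM factors, and log2 profiles use a prior count of 2. Standard errors are the log2 fold change over the square root of F. Lengths and positions come from GENCODE M21 (23384 symbols matched, 670 by synonym, 367 unmatched), and promoters from RefSeq (GRCm38.p6). Alternatives were RLE factors, no TMM factors, no low-count filter, DESeq2 1.42.0, limma-voom (limma 3.58.1), a replicate block, a threshold of 0.1, each library left out, and control 3 alone as reference. All pairs of libraries within a group differed beyond sampling noise (smallest chi-square over its degrees of freedom 36.7).

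The 9 genes were picked by gene symbol, by a rule that uses no measured value, though earlier results of these data were known. The gene lists were also chosen with those results known. Named were the 9 genes, the genes of each list past the threshold (3 per direction by smallest p) or else the 2 most abundant per kilobase, the nearest profile of each of the 9, and Dbp and Arntl. A gene that this rule names is not reported here. Other genes named, the 8 ratios and the E-box search were chosen after their values or letters were seen. Figures were drawn with matplotlib 3.10.9.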

Additional observations from a re-analysis of the deposited data

How the results depend on the processing

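With all libraries 302 genes and 0 of the 9 genes passed. The count was 498 without TMM factors, 1119 with DESeq2, 137 with limma-voom and 767 at a threshold of 0.1, and it ran from 31 (without control 2) to 1310 (without control 3) when libraries were left out in turn, with 9 left against control 3 alone. It also dropped by more than 1.5 times without control 1 (36) and without knockout-labelled liver 1 (77), 3 (55) or 4 (67). Of the 9 genes, 1 passed with DESeq2 and 1 at the threshold of 0.1, Irs2 in both, and 0 to 3 did when libraries were left out, the 3 without control 3. The cause of these changes was not tested.

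Deviations from the group mean correlated at -0.0509, 0.069 and -0.139 for same-numbered libraries. For libraries of unlike number among 1 to 3 they correlated at -0.0969 to 0.166. So few pairs cannot show whether the replicate numbers pair the libraries. With the replicate number as a block 74 genes and 0 of the 9 passed, and Igfbp1 moved to 0.07.

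Insr, Irs2, Akt2 and Ppargc1a had negative log2 fold changes in all 14 alternative fits. The others changed sign, and none of them passed in any. Without TMM factors Irs1 was 0.04, Foxo1 0.01, G6pc 0.00 (above 0 before rounding) and Igfbp1 0.13. With a library left out Irs1 ranged from -0.30 to 0.15, G6pc from -0.55 to 0.04 and Igfbp1 from -0.62 to 0.14. Against control 3 alone Pck1 was 0.73, G6pc 0.26 and Igfbp1 1.49. List medians that turned from below to above 0 without TMM factors were insulin signalling 0.11, FOXO 0.01, insulin-repressed targets 0.04, IGF axis 0.13 and hepatocyte markers 0.07. With a library left out the IGF axis median ran from -0.22 to 0.01 and the clock median from -0.07 to 0.10. Against control 3 alone the clock median was -0.07 and the acute phase median 0.20. Without TMM factors 83.9% of the genes called were higher in the knockout-labelled livers, against 57% with them.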

Other observations

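Among the genes listed as insulin-repressed targets, 2 chosen after their values were seen had the arrangement of Irs2 at larger size. Whether insulin represses them was not tested. Enho, which encodes the secreted peptide adropin, had 3.16, 6.09, 5.07 and 2.64 CPM in the knockout-labelled livers, against 57.8, 51.8 and 11.6 CPM in the control livers (log2 fold change -3.26, SE 0.61, edgeR adjusted p = 0.058). Bcl6, a transcriptional repressor, had 12.2, 10.9, 12.9 and 13.3 CPM in the knockout-labelled livers, against 71.3, 75.2 and 18.7 CPM in the control livers (log2 fold change -2.15, SE 0.46, edgeR adjusted p = 0.0733). For both, control 3 lay between the other controls and the knockout-labelled livers. Both fell without control 3. Trib3, chosen in the same way, went the other way, with 18.7, 9.95, 14.2 and 17.4 CPM in the knockout-labelled livers and 4.96, 3.33 and 8.01 CPM in the control livers (log2 fold change 1.46, SE 0.32, edgeR adjusted p = 0.0566). The alanine aminotransferase genes Gpt and Gpt2, also chosen after the fact, were at 0.55 (SE 0.14, edgeR adjusted p = 0.0678) and 0.65 (SE 0.17, edgeR adjusted p = 0.0784), without overlap of the groups.

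Markers of other cell types gave these summed levels. Endothelial markers were at 403 to 580 CPM in knockout-labelled and 556 to 639 CPM in control livers, and stellate markers at 224 to 271 CPM in knockout-labelled and 239 to 366 CPM in control livers. Cholangiocyte markers summed to 154 to 342 CPM in knockout-labelled and 62.7 to 229 CPM in control livers. Most of this was Spp1, which other cells also express, while Krt19, Krt7 and Epcam were at most 2.67 CPM in any library and had log2 fold changes of -0.76, -0.23 and -0.63. Lymphocyte markers were at 3.42 to 5.45 CPM in knockout-labelled and 4.70 to 6.68 CPM in control livers. Adipocyte markers summed to 543 to 770 CPM in knockout-labelled and 450 to 598 CPM in control livers, nearly all from Adipor2, which hepatocytes express, and Cidec. The defining adipocyte markers Adipoq, Plin1 and Lep were at most 0.149 CPM in any library. Skeletal muscle markers reached at most 1.18 CPM in knockout-labelled and 1.57 CPM in control livers. Of 5 pancreatic acinar markers 3 were at 0 in every library and Prss2 was at most 0.0532 CPM, while Cela1 was at 7.82 to 11.0 CPM in knockout-labelled and 5.62 to 11.3 CPM in control livers.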
